A study of Homo sapiens with 9 samples.

Results

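The genes described are 10 enzymes of fatty acid synthesis and desaturation, namely ACLY, ACSS2, ACACA, ACACB, FASN, ELOVL6, SCD, FADS1, FADS2 and ME1. They were chosen by name, with earlier results of these data known, from the 22587 genes with a value. The RNA-seq experiment used HepG2 cells, a long-established human cell line from a liver tumor. The experiment asked how gene expression responds to loss of glutamine (Gln). It comprised 9 libraries, 3 from cells with Gln added, 3 from cells deprived of Gln for 12 h and 3 from cells deprived for 24 h. All cultures grew in high-glucose DMEM with serum, and for deprivation the medium was exchanged for one free of Gln on the day after seeding. The labels give no time for the Gln added libraries, and the same 3 were the reference for both times. Effects of time in culture or of the medium exchange can therefore not be told apart from those of deprivation. GlutaMAX, a stable dipeptide source of Gln, is listed by the sample labels as the treatment of the Gln added cultures, whereas the treatment protocol and the methods name it for the deprivation medium, and this discrepancy was not resolved here. The labels do not state that replicates came from separate cultures, so p-values measure the spread between these libraries, which may be technical.

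Cells make fatty acids in the cytosol from acetyl-CoA, which ATP citrate lyase (ACLY) cleaves from exported citrate and acyl-CoA synthetase short chain 2 (ACSS2) makes from acetate. Acetyl-CoA carboxylases (ACACA and ACACB) turn it into malonyl-CoA, and fatty acid synthase (FASN) builds palmitate from these units with NADPH, to which malic enzyme (ME1) contributes. ELOVL6 extends palmitate to stearate, SCD introduces the first double bond, and FADS1 and FADS2 desaturate polyunsaturated chains. In liver cells most of these genes are known targets of the SREBP transcription factors, which act together with NF-Y and Sp1 at promoters. Gln can itself feed citrate through reductive carboxylation in tumor cells.

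The promoters of these genes are shown here as the DNA they have in front of their start sites. Whether these sequences had a part in the changes described below was not tested. RefSeq windows on GRCh38.p14, from 250 bases before to 50 bases after a start, were at hand for 9 of the 10 genes in 15 windows, and FASN had none. The 250 bases before the start follow for 5 genes, written 5′ to 3′ on the gene's strand from its most upstream listed start, with the CCAAT box bound by NF-Y and the GGGCGG box bound by Sp1 in capitals on either strand (ATTGG and CCGCCC are their reverse complements). They lie at chr17:41919023-41919272 on the minus strand for ACLY, at chr20:34874739-34874988 on the plus strand for ACSS2, at chr10:100346983-100347232 on the plus strand for SCD, at chr11:61817004-61817253 on the minus strand for FADS1 and at chr11:61815953-61816202 on the plus strand for FADS2.
ACLY: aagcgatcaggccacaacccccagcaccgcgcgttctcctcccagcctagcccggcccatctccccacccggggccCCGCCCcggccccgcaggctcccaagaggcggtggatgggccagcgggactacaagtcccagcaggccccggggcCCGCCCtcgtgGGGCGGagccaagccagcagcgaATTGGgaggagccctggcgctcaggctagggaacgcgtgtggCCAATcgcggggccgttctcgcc
ACSS2: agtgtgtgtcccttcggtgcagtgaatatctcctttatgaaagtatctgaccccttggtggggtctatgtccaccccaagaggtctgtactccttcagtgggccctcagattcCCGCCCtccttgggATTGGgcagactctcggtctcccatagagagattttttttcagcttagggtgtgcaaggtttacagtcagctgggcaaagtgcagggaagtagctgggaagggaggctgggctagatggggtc
SCD: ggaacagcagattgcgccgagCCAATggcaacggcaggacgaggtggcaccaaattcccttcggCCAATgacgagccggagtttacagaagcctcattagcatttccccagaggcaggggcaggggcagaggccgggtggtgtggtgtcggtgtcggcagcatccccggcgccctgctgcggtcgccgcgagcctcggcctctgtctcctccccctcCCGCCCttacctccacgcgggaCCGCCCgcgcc
FADS1: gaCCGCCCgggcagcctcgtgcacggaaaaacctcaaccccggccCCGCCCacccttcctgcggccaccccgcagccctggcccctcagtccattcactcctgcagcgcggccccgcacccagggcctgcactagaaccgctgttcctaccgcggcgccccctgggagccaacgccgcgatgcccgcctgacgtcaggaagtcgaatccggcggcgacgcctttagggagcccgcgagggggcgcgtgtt
FADS2: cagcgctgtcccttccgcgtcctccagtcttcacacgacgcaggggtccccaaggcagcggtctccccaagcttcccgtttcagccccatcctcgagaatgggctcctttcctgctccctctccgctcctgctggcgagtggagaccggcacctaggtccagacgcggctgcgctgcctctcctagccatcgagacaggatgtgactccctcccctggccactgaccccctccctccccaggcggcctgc

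The ACLY sequence held 2 CCAAT boxes and 3 GGGCGG boxes, SCD held 2 of each, ACSS2 held 1 of each, FADS1 held 2 GGGCGG boxes and no CCAAT box, and FADS2 held neither. The window of the other listed FADS2 start, not printed, held a GGGCGG box 154 bases before that start and a CCAAT box just after it. Over the full windows of 300 bases, CCAAT was found in 8 of 15 windows of these genes (53.3%) and in 34.6% of all 35116 windows. GGGCGG was found in 12 of 15 windows (80%), against 45% of all windows and 66.5% of the windows of genes tested for expression. TCACNCCAC, the core of a sterol regulatory element, was in none of the 15 windows and in 1.13% of all windows. It was also in none of the 20 windows at hand for 15 genes of cholesterol synthesis, a pathway compared further on. The E-box CACGTG was in none of the 15 windows of these enzymes and in 7.26% of all. Both strands were searched, no test was made, and a missing match says only that these letters are not in this window. FADS1 and FADS2 are neighbours on opposite strands of chromosome 11, and the FADS1 start lay 599 and 800 bases downstream of the listed FADS2 starts, so that both transcripts overlap at their 5′ ends.

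Depth was similar across the groups. Fragments assigned to genes numbered 34938518 to 35700121 per library with Gln added, 29621270 to 36261546 at 12 h and 33255623 to 35800949 at 24 h. Values are FPKM, fragments scaled to gene length and to the depth of the library. All 8 analysed markers of hepatocytes were expressed, ALB at 3230 to 3908 FPKM, and their levels summed to between 7494 and 7594 FPKM in the Gln added libraries, to between 6557 and 6624 in those of 12 h and to between 6336 and 6666 in those of 24 h. All 3 analysed markers of endothelial cells and all 3 of fibroblasts were below 1 FPKM in all libraries. Lysozyme (LYZ) was the only leukocyte marker analysed, and it was not low. Its Gln added libraries lay between 731 and 751.2 FPKM, those of 12 h between 523.7 and 563.7 and those of 24 h between 736.5 and 784.8. The part of these shifts in the results was not tested.

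The mRNA of 9 of the 10 enzymes was lower after Gln deprivation at both times. ME1 was the exception, as it was close to undetected in every group. Summed over all 10 genes, the level was 1080 ± 12 FPKM with Gln added (SD, n = 3), 558.9 ± 2.25 FPKM at 12 h and 543.5 ± 10.7 FPKM at 24 h, or 51.7% and 50.3% of the Gln added mean. The fragments of these genes took 0.606% to 0.62% of each Gln added library, 0.313% to 0.317% at 12 h and 0.3% to 0.313% at 24 h. A bulk measurement of this kind cannot tell fewer expressing cells from less RNA per cell.

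**Figure D1:**
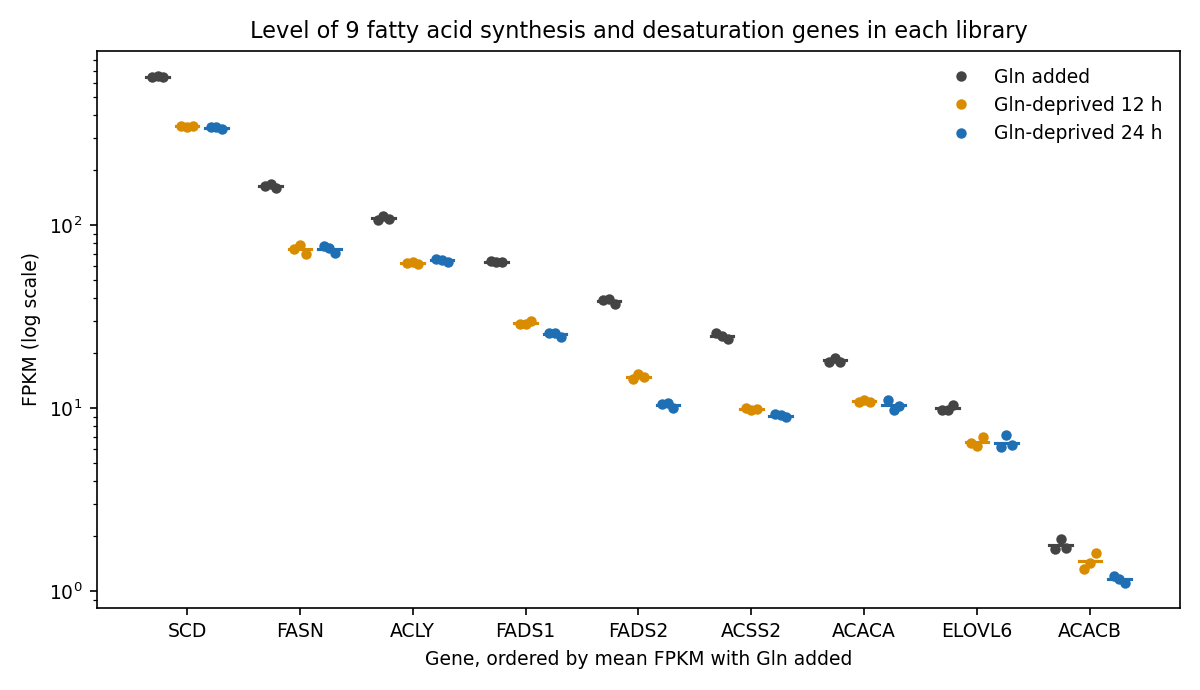
Level of the 9 expressed enzymes in each of the 9 libraries, in FPKM on a log axis, with genes in order of their Gln added mean. Points are libraries, short lines are group means, and for every gene the 3 Gln added libraries lie above all 6 deprived libraries.

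Differences were tested with limma on log2(FPKM + 0.1) over the 11880 genes whose mean reached 0.5 FPKM, with Benjamini-Hochberg adjustment over all of them and a threshold of 0.05. At 12 h, all 9 enzymes tested were lower in limma's test, where 31% of all genes tested were lower (60.2% differed in either direction). At 24 h all 9 were again lower, against 31.7% of all genes (64.7% in either direction). The deprived and Gln added libraries overlapped for none of the 9 at either time, a pattern that 34.4% of all genes showed in the lower direction at 12 h and 34.1% at 24 h. Falls of at least 0.5 on the log2 scale that passed the test were seen for 8 enzymes at 12 h and for 9 at 24 h, compared with 10.8% and 12.4% of all genes. Because the enzymes were chosen with earlier results of these data known, these shares give a scale and do not test the set. The median difference of the 9 was -0.90 at 12 h and -0.93 at 24 h, against -0.02 and 0.01 over all genes. Taken one at a time, each of the 9 gave a two-sided exact permutation p of 0.1 at both times, the smallest that 3 libraries against 3 allow. Both comparisons use the same 3 Gln added libraries, so the values at 12 h and 24 h are not independent.

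**Figure D2:**
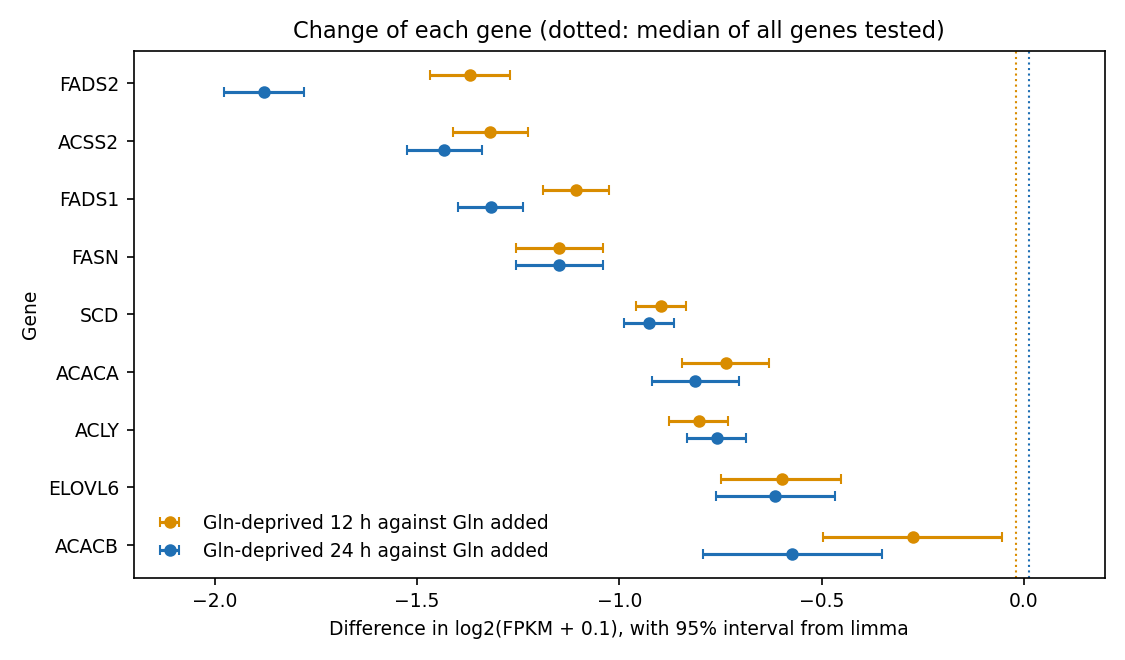
Difference from Gln added of each enzyme at 12 h (orange) and 24 h (blue), on the log2(FPKM + 0.1) scale with the 95% interval from limma. All 18 intervals lie below 0, from -0.28 for ACACB at 12 h to -1.88 for FADS2 at 24 h, and the dotted lines at -0.02 and 0.01 mark the median of all genes tested.

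Among the suppliers of acetyl-CoA, the acetate-dependent enzyme had a larger difference than the citrate-dependent one. ACLY (chr17:41866917-41930542, minus strand) was at 107.3, 112.2 and 107.8 FPKM in the 3 Gln added libraries, at 62.6, 62.9 and 61.8 at 12 h, and at 65.9, 64.6 and 62.8 at 24 h. The replicates were tight, and the deprived libraries of both times formed 1 narrow band. ACLY fell by 0.80 on the log2 scale at 12 h (SE 0.0331, adjusted p = 1.56e-08, limma) and by 0.76 at 24 h (SE 0.0331, adjusted p = 1.4e-08, limma), to 57.2% and 59.1% of its Gln added mean.

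ACSS2 (chr20:34872146-34927962, plus strand) was at 25.8, 24.9 and 23.9 FPKM with Gln added. It was at 10.05, 9.79 and 9.86 FPKM at 12 h and at 9.32, 9.15 and 8.96 FPKM at 24 h. All 6 deprived libraries were thus at 10.05 FPKM or below, and all 3 Gln added libraries at 23.9 FPKM or above. ACSS2 fell by 1.32 on the log2 scale at 12 h (SE 0.0421, adjusted p = 2.18e-09, limma) and by 1.43 at 24 h (SE 0.0421, adjusted p = 9.22e-10, limma), which placed it 80 and 94 from the lowest of the 11880 genes tested. It was 2.51-fold lower at 12 h and 2.72-fold lower at 24 h.

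The ratio of ACLY to ACSS2 within a library does not depend on the scaling between libraries. It averaged 4.395 ± 0.208 with Gln added (SD, n = 3), 6.308 ± 0.105 at 12 h and 7.049 ± 0.0386 at 24 h. The log2 ratio was higher by 0.52 at 12 h (95% interval 0.41 to 0.64) and by 0.68 at 24 h (0.57 to 0.80), with no overlap between libraries and a two-sided exact permutation p of 0.1 at each time, the smallest possible. Adjusted over the 8 comparisons of ratios made here, that p remained 0.1 and passed no threshold.

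ME1 (chr6:83210402-83431051, minus strand), the cytosolic malic enzyme, was at 0 in 7 of the 9 libraries. It had 1 fragment in Gln added replicate 2 (0.00851 FPKM) and 1 in 12 h replicate 1 (0.01 FPKM). Every library was under the level of 3 fragments, 0.0248 to 0.0304 FPKM, so ME1 was left out of the test and no fold is given. Other genes that supply carbon or NADPH were measured well and are described with their list further on.

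The carboxylases, which make malonyl-CoA, differed in level and in the size of their change. ACACA (chr17:37084992-37406836, minus strand) encodes the cytosolic form used for synthesis. It was at 18.03, 18.8 and 18.03 FPKM with Gln added, at 10.9, 11.1 and 10.8 at 12 h, and at 11.1, 9.82 and 10.3 at 24 h. ACACA fell by 0.74 on the log2 scale at 12 h (SE 0.0487, adjusted p = 4.59e-07, limma) and by 0.81 at 24 h (SE 0.0487, adjusted p = 1.48e-07, limma).

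ACACB (chr12:109116587-109268226, plus strand), whose product sits at the outer mitochondrial membrane and restrains fatty acid oxidation, was the least abundant of the enzymes tested. It was at 1.71, 1.94 and 1.72 FPKM with Gln added, at 1.33, 1.44 and 1.63 at 12 h and at 1.22, 1.18 and 1.12 at 24 h. The highest library at 12 h (1.63 FPKM) was close to the lowest with Gln added (1.71 FPKM), whereas all libraries at 24 h were at 1.22 FPKM or below. The fall at 24 h was 0.57 on the log2 scale (SE 0.1, adjusted p = 0.000486, limma). The fall at 12 h was 0.28 (SE 0.1, adjusted p = 0.0349, limma), and this call was lost in 8 of 19 alternative analyses, among them the replicate block (adjusted p = 0.0515, limma) and the omission of any 1 Gln added library or of 12 h replicate 1 or 2 (0.0519 to 0.126). In those 8 analyses 8 of the 9 enzymes were lower at 12 h.

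The ratio of ACACA to ACACB was 10.23 ± 0.477 with Gln added (SD, n = 3), 7.516 ± 0.794 at 12 h and 8.87 ± 0.449 at 24 h. The log2 ratio was lower by 0.45 at 12 h (difference -0.45, 95% interval -0.72 to -0.18) and by 0.21 at 24 h (difference -0.21, 95% interval -0.37 to -0.05). Libraries did not overlap at either time, and the two-sided exact permutation p was 0.1, the smallest possible.

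FASN (chr17:82078338-82098294, minus strand), the synthase itself, was the second most abundant enzyme of the set. It was at 163.7, 169.2 and 160.9 FPKM with Gln added, at 74.6, 78.1 and 70.2 at 12 h and at 77.5, 75.2 and 70.2 at 24 h. Both deprived groups averaged 45.1% of the Gln added mean, and their libraries covered the same range. FASN fell by 1.15 on the log2 scale at 12 h (SE 0.0485, adjusted p = 1.85e-08, limma) and by 1.15 at 24 h (SE 0.0485, adjusted p = 1.1e-08, limma). The difference between the deprived groups was 0.00, with a 95% interval of -0.11 to 0.11.

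SCD, the stearoyl-CoA desaturase (chr10:100347233-100364826, plus strand), was the most abundant enzyme, and it took 59.8% to 60.6% of the summed level with Gln added and 61.8% to 63.5% in the deprived libraries. It was at 645.2, 654.3 and 649.2 FPKM with Gln added, at 351.3, 345.6 and 350.2 at 12 h and at 343.4, 344.7 and 337.1 at 24 h. Between 54575 and 121108 fragments lay behind each of these values, and the replicates of a group differed by little. SCD fell by 0.90 on the log2 scale at 12 h (SE 0.028, adjusted p = 1.92e-09, limma) and by 0.93 at 24 h (SE 0.028, adjusted p = 1.11e-09, limma). Among all genes ranked by FPKM in a library, it went from place 69 or 70 to places 113 to 125.

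ELOVL6 (chr4:110045846-110199199, minus strand), which supplies SCD with stearate, had a smaller difference. It was at 9.75, 9.82 and 10.4 FPKM with Gln added, at 6.49, 6.21 and 6.99 at 12 h and at 6.12, 7.12 and 6.27 at 24 h. ELOVL6 fell by 0.60 on the log2 scale at 12 h (SE 0.0668, adjusted p = 2.32e-05, limma) and by 0.61 at 24 h (SE 0.0668, adjusted p = 1.47e-05, limma). The ratio of SCD to ELOVL6 was 65.09 ± 2.27 with Gln added (SD, n = 3), 53.29 ± 2.85 at 12 h and 52.77 ± 3.92 at 24 h. The log2 ratio differed by -0.29 at 12 h (95% interval -0.44 to -0.14) and by -0.30 at 24 h (-0.50 to -0.11), with no overlap of libraries and a two-sided exact permutation p of 0.1, the smallest possible.

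The desaturases of polyunsaturated fatty acids fell further at 24 h than at 12 h. FADS2 (chr11:61792980-61867354, plus strand), the delta-6 desaturase that starts the pathway, was at 39.2, 39.8 and 37.03 FPKM with Gln added. It was at 14.5, 15.4 and 14.8 FPKM at 12 h and at 10.5, 10.7 and 10.1 FPKM at 24 h. The 3 groups were fully separated. FADS2 fell by 1.37 on the log2 scale at 12 h (SE 0.0443, adjusted p = 2.46e-09, limma) and fell by 1.88 at 24 h (SE 0.0443, adjusted p = 2.12e-10, limma), a 2.59-fold and a 3.7-fold lower level. It was place 68 from the lowest of all genes tested at 12 h and place 23 at 24 h.

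FADS1 (chr11:61799627-61829318, minus strand), the delta-5 desaturase of the same pathway, was at 64.2, 62.98 and 62.7 FPKM with Gln added. It was at 29.03, 28.8 and 30.2 FPKM at 12 h and at 25.8, 25.8 and 24.4 FPKM at 24 h. Its groups were also fully separated, as were those of ACSS2, ACACB and SCD. The share of all genes with such a separation is not given here. FADS1 fell by 1.11 on the log2 scale at 12 h (SE 0.0367, adjusted p = 2.92e-09, limma) and by 1.32 at 24 h (SE 0.0367, adjusted p = 6.67e-10, limma). The ratio of FADS1 to FADS2 was 1.639 ± 0.0546 with Gln added (SD, n = 3), 1.97 ± 0.087 at 12 h and 2.427 ± 0.0253 at 24 h. The log2 ratio was higher by 0.27 at 12 h (95% interval 0.14 to 0.39) and by 0.57 at 24 h (0.49 to 0.65), with no overlap of libraries and a two-sided exact permutation p of 0.1, the smallest possible.

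These neighbours share sequence on opposite strands. In GENCODE v44, 4.79% of the exonic bases of FADS1 lie in exons of FADS2 on the other strand, and 4.64% of those of FADS2 lie in exons of FADS1. A further 0.782% of FADS1 overlaps MIR1908 and 0.464% of FADS2 overlaps FEN1 on the same strand. Antisense exons also cover 3% of ACLY and 3.3% of ELOVL6. Whether strand was used in counting is not given in the sources used here, so fragments in these stretches may be assigned to either gene.

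**Figure D3:**
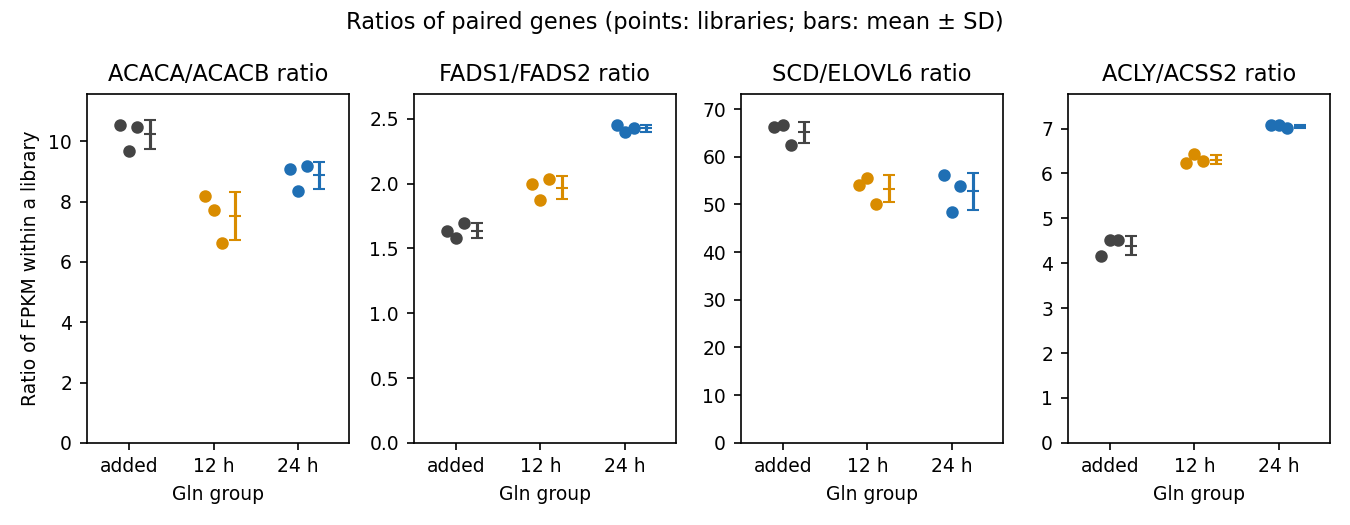
Ratio of the FPKM of paired enzymes within each library, for the Gln added, 12 h and 24 h groups, with points for libraries and bars for the mean ± SD (n = 3). ACLY/ACSS2 goes from 4.395 to 7.049 and FADS1/FADS2 from 1.639 to 2.427 between Gln added and 24 h, while ACACA/ACACB and SCD/ELOVL6 are lower in both deprived groups.

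Between 12 h and 24 h of deprivation most of the enzymes did not pass the test. Only FADS1 and FADS2 of the 9 were lower at 24 h (10.5% of all genes tested were lower and 20.1% differed in either direction), none was higher (9.57% of all genes), and 7 did not pass. FADS2 fell by a further 0.51 on the log2 scale (SE 0.0443, adjusted p = 3.96e-05, limma) and FADS1 by a further 0.21 (SE 0.0367, adjusted p = 0.00288, limma). Both calls held in all 19 alternative analyses. ACSS2 differed by -0.11 (adjusted p = 0.083, limma) and ACACB by -0.30 (adjusted p = 0.0614, limma). With median-ratio scaling between libraries both passed (adjusted p = 0.0466 and 0.0442, limma), which made 4 enzymes lower. For SCD the difference was -0.03 with a 95% interval of -0.09 to 0.03, for ACLY 0.05 with an interval of -0.03 to 0.12, for ACACA -0.08 with an interval of -0.18 to 0.03, and for ELOVL6 -0.01 with an interval of -0.16 to 0.13.

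The order of the levels shifted as well. With Gln added it ran SCD, FASN, ACLY, FADS1, FADS2, ACSS2, ACACA, ELOVL6, ACACB and ME1, and no library of one gene reached down to the next gene's highest. At 12 h ACACA stood above ACSS2, with a lowest library of 10.8 FPKM against a highest ACSS2 library of 10.05 FPKM. At 24 h ACACA was again above ACSS2, and FADS2, at 10.1 to 10.7 FPKM, was no longer separated from ACACA, at 9.82 to 11.1 FPKM. These are levels per kilobase of gene.

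Genes that work beside these enzymes were described by lists, with counts and medians and no test of a list. Among all genes, 31% were lower and 29.1% higher at 12 h, and 31.7% were lower and 33% higher at 24 h. Of 9 tested genes that supply carbon and NADPH, 7 fell at both times and none rose, with a median of -0.43 at 12 h and -0.43 at 24 h. SLC25A1, the mitochondrial citrate carrier that feeds ACLY, went from 114.7 ± 3.46 FPKM with Gln added (SD, n = 3) to 60.91 ± 4.86 at 12 h and 49.45 ± 0.314 at 24 h. Relative to Gln added it fell by 0.91 on the log2 scale at 12 h and fell by 1.21 at 24 h (adjusted p = 1.66e-07 and 1.32e-08, limma). IDH1, a cytosolic source of NADPH that can also run in the reductive direction, fell by 0.58 and 0.66 (adjusted p = 5.36e-07 and 1.35e-07, limma).

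Of 9 tested genes of the elongation cycle other than ELOVL6, 6 fell at 12 h and 7 at 24 h, and none rose, with medians of -0.17 and -0.27. HACD1, a 3-hydroxyacyl-CoA dehydratase, fell by 0.58 on the log2 scale at 24 h (adjusted p = 5.04e-06, limma), and ELOVL1, the elongase of very long saturated chains, fell by 0.50 (adjusted p = 1.96e-06, limma). Of 6 other desaturases and electron carriers, 3 fell at both times, and 2 rose at 12 h and 3 at 24 h. The carriers CYB5A and CYB5B, cytochromes b5 that pass electrons to desaturases, were among those that fell. In contrast, the desaturases tested in this list were among the 3 genes that rose at 24 h. CYB5A went from 36.45 ± 1.01 FPKM (SD, n = 3) to 23.55 ± 0.722 and 19.88 ± 0.22, falling by 0.63 at 12 h and 0.87 at 24 h (adjusted p = 2.37e-07 and 1.39e-08, limma). CYB5B fell by 0.76 at 12 h and 0.63 at 24 h (adjusted p = 1.49e-07 and 3.88e-07, limma).

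Of 10 tested genes that activate or control the synthase and the carboxylases, 7 rose and 1 fell at 12 h, and 5 rose and 1 fell at 24 h, with medians of 0.25 and 0.19. PRKAB2, a subunit of AMPK, the kinase that inhibits both carboxylases, went from 18.82 ± 0.217 FPKM (SD, n = 3) to 30.39 ± 1.22 and 32.29 ± 0.856. It rose by 0.69 on the log2 scale at 12 h and by 0.78 at 24 h (adjusted p = 1.79e-07 and 4.58e-08, limma). HLCS, which attaches biotin to the carboxylases, rose by 0.53 and 0.62 from a low level of 1.691 ± 0.0505 FPKM (adjusted p = 0.000172 and 4.21e-05, limma).

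Of 17 tested genes of transcriptional control, 5 rose and 3 fell at 12 h and 7 rose and 5 fell at 24 h. SREBF2, which encodes the SREBP that favours cholesterol genes, went from 35.65 ± 0.571 FPKM with Gln added (SD, n = 3) to 22.63 ± 0.905 at 12 h and 20.11 ± 0.301 at 24 h. It fell by 0.65 and 0.82 on the log2 scale (adjusted p = 2.15e-07 and 2.47e-08, limma). SREBF1, which encodes the SREBP forms that favour fatty acid genes, had smaller differences and went from 13.54 ± 0.311 FPKM to 12.34 ± 0.578 and 11.98 ± 0.6. Its fall of 0.18 at 24 h passed the test (adjusted p = 0.0108, limma). Its fall of 0.13 at 12 h passed narrowly (adjusted p = 0.0425, limma), and this call was lost in 10 of 19 alternative analyses (adjusted p = 0.0519 to 0.141, limma), 6 of which each left out 1 library (any Gln added library, 12 h replicate 2 or 3, or 24 h replicate 3). MBTPS1, a protease that releases SREBPs from the membrane, rose by 0.43 and 0.57 (adjusted p = 3.42e-06 and 2.57e-07, limma).

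Cholesterol synthesis, the other SREBP pathway, was taken for comparison. All 20 of its enzymes fell at both times, with a median of -1.71 at 12 h and -1.69 at 24 h beside -0.90 and -0.93 for the fatty acid enzymes. No test of the difference between the lists was made. MVD, the mevalonate diphosphate decarboxylase, went from 46.26 ± 1.35 FPKM (SD, n = 3) to 9.251 ± 0.682 at 12 h and 9.944 ± 0.682 at 24 h, and it fell by 2.31 and 2.21 on the log2 scale (adjusted p = 6.68e-10 and 7.3e-10, limma). LSS, lanosterol synthase, fell by 2.19 and 2.16 (adjusted p = 1.56e-10 and 1.55e-10, limma). FADS2 at 24 h, at -1.88, was the only fatty acid enzyme past the cholesterol median of its time.

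**Figure D4:**
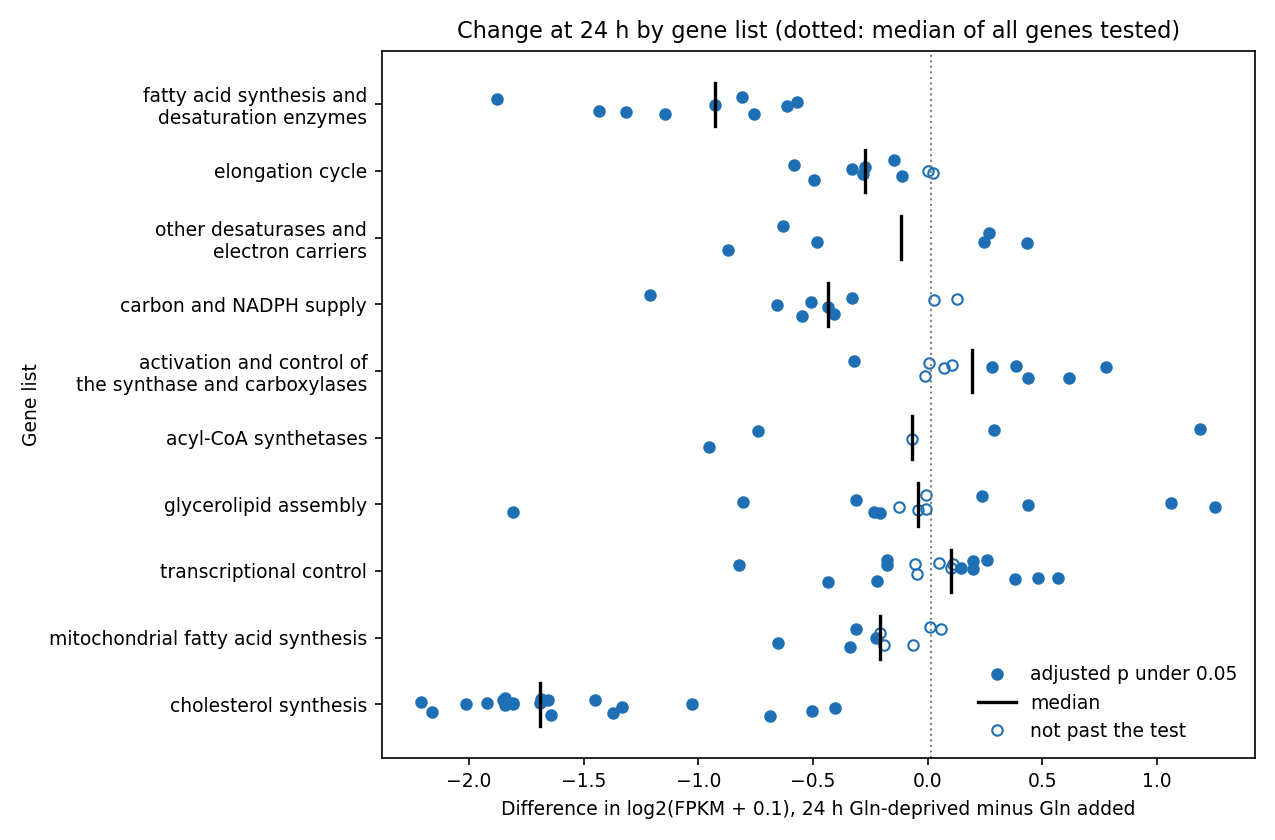
Difference between 24 h of deprivation and Gln added for every tested gene of each list, on the log2(FPKM + 0.1) scale, with filled points past an adjusted p of 0.05 in limma, open points not past it, black lines at the list medians and a dotted line at 0.01, the median of all genes. The 9 fatty acid enzymes centre on -0.93 and the 20 cholesterol enzymes on -1.69, whereas genes that activate or control the synthase and carboxylases centre on 0.19.

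Genes with the most similar course were found by comparing each gene's log2 levels, centred on their mean over the 9 libraries, with the median course of the 9 fatty acid enzymes. That course averaged 0.61 in the Gln added libraries, -0.28 in those of 12 h and -0.34 in those of 24 h. Of 5105 genes whose mean reached 10 FPKM, RPA1 differed least from it, with a root mean square difference of 0.0299 over the 9 libraries. It was followed by PCNA (0.0347), PRDX6 (0.0383), MSH6 (0.0416) and ZDHHC12 (0.0492). PCNA differed from Gln added by -0.95 at 12 h and -0.97 at 24 h, and PRDX6 by -0.81 and -0.89.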

How the data were processed

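RNA-seq was analysed in 9 HepG2 libraries, 3 per group, grouped by the sample labels. The deposited values are FPKM, with 1 column for each library. Per the methods, strand-specific paired-end libraries were aligned to GRCh38 with STAR and the study tested with DESeq2, which was not used here. The labels name another library kit, and the submitters' processing notes name HTSeq and R 3.2.0. The annotation is not given in the sources used here.

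FPKM steps gave whole fragments (within 0.01) for 100% of 22587 genes and hence the depth. Genes whose mean reached 0.5 FPKM were fitted with limma 3.58.1 in R 4.3.3 (lmFit, eBayes with a trend, 3 groups in 1 fit) on log2(FPKM + 0.1), and differences are on that scale, which understates changes of low genes. The steps were tested on simulated data. Ratios of 4 pairs were compared by two-sided exact permutation tests in scipy 1.17.1, with intervals from the pooled spread of the groups compared. Positions come from GENCODE v44 and promoter windows from RefSeq on GRCh38.p14.

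The enzymes and lists were chosen with earlier results of these data known. Named genes are the 10 enzymes, SREBF1 and SREBF2, up to 2 genes per list with the largest absolute difference at 24 h (adjusted p under 0.05, mean of at least 1 FPKM, no overlap), and the 5 genes nearest in course. INSIG1, also in the rule, was not analysed here. The alternatives were other pseudocounts (1, 0.01), filters (none, mean of at least 1 FPKM), scalings (same total, median ratio), only the groups compared, a replicate block, eBayes without a trend, voom on the fragments and each library left out. Every pair of replicates differed beyond sampling noise, so each library counted as 1 sample.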

Additional observations from a re-analysis of the deposited data

Results flagged for a closer look

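A further change between 12 h and 24 h of Gln deprivation, tested as the difference itself with limma, was found for 7 of the genes named. Among all genes tested, 20.1% differed between these times in either direction, and the share among the tested genes named was close to that. The 7 are therefore described singly and not as a result about the genes named. The genes named from the lists were picked for a large difference at 24 h, which favours such a change. FADS2 was lower at 24 h (-0.51 on the log2 scale, adjusted p = 3.96e-05), from 14.9 ± 0.436 to 10.44 ± 0.354 FPKM (SD, n = 3 per group), and so was FADS1 (-0.21, adjusted p = 0.00288), from 29.34 ± 0.746 to 25.34 ± 0.789 FPKM. In limma's test SLC25A1, the citrate carrier, was lower by 0.30 (-0.30, adjusted p = 0.00305), CYB5A, the electron carrier, was lower (-0.24, adjusted p = 0.00154), and SREBF2 was lower (-0.17, adjusted p = 0.0123). ACSL5, an acyl-CoA synthetase, was higher at 24 h (0.54 on the log2 scale, adjusted p = 9.83e-06, limma), from 70.8 ± 1.26 to 102.9 ± 1.85 FPKM. MBTPS1 was also higher (0.14, adjusted p = 0.0201, limma), a call lost when only the groups compared were fitted (adjusted p = 0.0572, limma) or when 12 h replicate 1, 12 h replicate 2 or 24 h replicate 2 was left out (0.0528 to 0.0807). Single libraries were not screened for outliers, since each group has 3.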

How the results depend on the processing

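Of 2105 values recomputed for 131 results, 2066 were scored as the same, 23 lost a call, 11 gained one, 3 moved and 2 reversed. The same score was also given to a change of sign where neither fit passed the test, and to small shifts of a count. FASN between 12 h and 24 h, for example, ranged from -0.04 to 0.04. The 9 enzymes were lower at 24 h in every alternative run, and at 12 h 8 or 9 were. Between 12 h and 24 h, 4 enzymes were lower with median-ratio scaling and 3 with voom or without a trend, against 2. The acyl-CoA synthetase median changed sign to 0.25 (12 h) and 0.11 (24 h) with a mean of at least 1 FPKM, where fewer genes are tested. With FPKM rescaled to the same total, the 12 h medians of transcriptional control and cholesterol synthesis were 0.10 and -1.68, against 0.07 and -1.71. This setting scales all genes of a library alike, and the 12 h median of all genes went from -0.02 to 0.01. Scaling moved the median of all genes to between -0.01 and 0.06. Deviations of libraries with the same replicate number correlated at -0.16 to 0.30, over 0.1 in 2 of 9 pairs, both between 12 h and 24 h. Libraries with different numbers correlated at -0.51 to 0.36. With 3 libraries per group these values do not show a pairing by replicate number, and they cannot exclude one. With the replicate block, 7341, 7802 and 2586 genes were called at 12 h, at 24 h and between them (7147, 7686 and 2386 without it), and ACACB lost its call at 12 h (adjusted p = 0.0515, limma) while HSD17B8 gained one between 12 h and 24 h (0.00965). Voom on the fragments called 7312, 7857 and 2640. Leaving out 1 library gave 6455 to 7434 genes at 12 h and 7034 to 7811 at 24 h. Between 12 h and 24 h it gave 1652 to 2515. ME1 had fewer than 3 fragments in every library.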

Other observations

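Genes that use the fatty acids made by these enzymes were mixed in direction. Of 5 tested acyl-CoA synthetases, which activate fatty acids, 2 rose and 2 fell at both times. Among all genes tested, 29.1% were higher and 31% lower at 12 h, and 33% were higher and 31.7% lower at 24 h. ACSL5 rose from 45.21 ± 1.89 FPKM with Gln added (SD, n = 3) to 70.8 ± 1.26 at 12 h and 102.9 ± 1.85 at 24 h, by 0.65 and 1.19 on the log2 scale (adjusted p = 1.74e-07 and 1.42e-09, limma). ACSL4, which prefers polyunsaturated fatty acids, fell from 113.3 ± 3.58 to 64.46 ± 7.25 and 68.12 ± 7.86 FPKM, by 0.82 and 0.74 (adjusted p = 1.94e-05 and 3.13e-05, limma).

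Of 13 tested genes of glycerolipid assembly, 4 rose and 5 fell at 12 h, and 4 rose and 5 fell at 24 h. These counts are near the shares of all genes tested, 29.1% higher and 31% lower at 12 h, and 33% higher and 31.7% lower at 24 h. The 4 that rose were the same genes at both times, whereas 3 genes fell at both. PNPLA3, a lipase and transacylase of lipid droplets, fell from 11.43 ± 0.245 FPKM (SD, n = 3) to 3.296 ± 0.454 at 12 h and 3.203 ± 0.379 at 24 h, with differences of -1.77 and -1.81 on the log2 scale (adjusted p = 1.63e-07 and 8.81e-08, limma). GPAT3, a glycerol-3-phosphate acyltransferase, rose from 3.849 ± 0.264 to 9.239 ± 0.0747 and 9.3 ± 0.251 FPKM, by 1.24 and 1.25 (adjusted p = 2.5e-08 and 1.53e-08, limma).

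Of 9 tested genes of mitochondrial fatty acid synthesis, a separate pathway that makes the precursor of lipoic acid, 4 fell at 12 h and 4 at 24 h, and none rose, with medians of -0.13 and -0.21. Of these, 3 genes fell at both times, while 31% of all genes tested were lower at 12 h and 31.7% at 24 h. HSD17B8 and CBR4, which together form its ketoacyl reductase, fell by 0.65 and 0.34 at 24 h (adjusted p = 0.000213 and 0.0023, limma). At 12 h they fell by 0.43 and 0.25 (adjusted p = 0.00366 and 0.0153, limma), and the call of CBR4 was lost without Gln added replicate 3 (0.0539).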
